A study of Mus musculus with 19 samples.

Results

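Grb10, Gnas, Mest, Plagl1 and Impact are 5 genes that are imprinted in the mouse and that are known for acting on growth, cell cycle or nutrient signalling. They were taken by name from the 22521 genes of the RNA-seq tables. All 5 were listed in the total expression tables and in the allelic table of the extra-embryonic ectoderm (ExE), and 3 of them (Grb10, Plagl1 and Impact) in the allelic read counts of morulae. The study compared embryos whose mothers lacked Eed in the oocyte with control embryos. Eed is a subunit of Polycomb repressive complex 2, which lays down the histone mark H3K27me3.

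Maternal knockout embryos (matKO) had Eed-fl/fl mothers carrying Gdf9-Cre, a recombinase driven by a promoter that is active in growing oocytes. Control embryos (CTR) had Eed-fl/fl mothers without the Cre. Every father was wild type, so that both groups carried a functional paternal Eed allele, and the strain label was B6/129 x PWK in both, with maternal B6/129 and paternal PWK transcripts told apart at sequence variants. The RNA-seq set held 2 matKO and 2 CTR morula libraries, and from ExE at embryonic day 6.5 it held 9 matKO (4 female, 5 male) and 4 CTR libraries (2 female, 2 male). The ExE is the trophoblast tissue next to the epiblast that contributes to the placenta. The embryo and litter of origin are not in the labels, and the p-values therefore reflect scatter among libraries that may be partly technical. No reciprocal cross was analysed here, so that the parent and the strain of an allele cannot be told apart.

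An imprinted gene is read mainly from the allele of a single parent, because a mark set in the egg or the sperm differs between the parental copies. Canonical imprints rest on DNA methylation at CG dinucleotides, whereas a smaller group of maternal imprints in early embryos and trophoblast rests on H3K27me3 from the oocyte. Gnas encodes the stimulatory G protein alpha subunit, which links receptors to cyclic AMP, and its locus also makes several other transcripts with their own parental bias. Grb10 is an adaptor that binds insulin and IGF receptors and restrains growth, and is read from the maternal allele in most tissues. Plagl1 (Zac1) is a zinc finger transcription factor that can arrest the cell cycle. Mest (Peg1) encodes an alpha/beta hydrolase fold protein of the endoplasmic reticulum. Impact is an inhibitor of GCN2, the kinase that senses amino acid shortage. Plagl1, Mest and Impact are read from the paternal allele.

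The deposited tables (mm9 build) give for each gene an interval that covers only a part of it. These were chr11:11830502-11833612 for Grb10, chr2:174109821-174110009 for Gnas, chr6:30683506-30683613 for Mest and chr10:12810594-12810830 for Plagl1. The tables do not state which exon each interval is. RefSeq promoters (GRCm38.p6, 250 bases before to 50 after each start) were matched by symbol for 4 of the 5 genes, with 10 promoters in all. The 3 printed here start transcripts of Grb10, Mest and Plagl1. In them, CG dinucleotides, on whose methylation canonical imprints rest, are in capitals. Whether these stretches carry the imprint was not measured. They lie at chr11:12037371-12037670 on the minus strand (Grb10), chr6:30737800-30738099 on the plus strand (Mest) and chr10:13090582-13090881 on the plus strand (Plagl1), each written 5′ to 3′.
Grb10: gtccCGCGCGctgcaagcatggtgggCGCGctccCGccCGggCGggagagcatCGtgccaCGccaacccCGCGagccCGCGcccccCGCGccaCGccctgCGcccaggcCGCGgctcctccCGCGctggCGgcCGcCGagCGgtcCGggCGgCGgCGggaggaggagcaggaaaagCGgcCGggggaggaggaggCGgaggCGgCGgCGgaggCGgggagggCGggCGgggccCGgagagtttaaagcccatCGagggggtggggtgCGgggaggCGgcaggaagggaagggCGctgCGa
Mest: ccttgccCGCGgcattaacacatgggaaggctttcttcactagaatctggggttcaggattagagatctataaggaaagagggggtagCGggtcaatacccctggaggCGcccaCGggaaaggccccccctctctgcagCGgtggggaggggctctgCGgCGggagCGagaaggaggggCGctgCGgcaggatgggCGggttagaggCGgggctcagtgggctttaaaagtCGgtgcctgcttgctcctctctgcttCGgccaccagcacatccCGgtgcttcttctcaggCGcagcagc
Plagl1: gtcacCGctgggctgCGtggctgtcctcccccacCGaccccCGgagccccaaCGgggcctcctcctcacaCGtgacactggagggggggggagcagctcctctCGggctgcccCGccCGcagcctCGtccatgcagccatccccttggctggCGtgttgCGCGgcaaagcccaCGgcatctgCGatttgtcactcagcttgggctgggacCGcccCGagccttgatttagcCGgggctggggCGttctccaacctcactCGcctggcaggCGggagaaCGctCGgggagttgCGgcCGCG

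The Grb10 stretch held 45 CG dinucleotides, and 1.93% of the 32851 promoters of the table held as many or more. The Plagl1 stretch held 26 (16.9% of promoters with as many) and the Mest stretch 17 (31.4%), where the median promoter held 7. Promoters of these genes that are not printed held 16 to 40 CG dinucleotides for Gnas, 9 for Grb10, and 8 and 17 for Mest. The motif TGCCGC, the letters that the imprint-maintaining factor ZFP57 binds when methylated, was searched on both strands. It occurred in 4 of the 10 promoters of these genes, namely this Grb10 stretch, this Plagl1 stretch and 2 Mest stretches that overlap each other, and in 11.6% of all promoters. These letters are a description of the sequence. No methylation or chromatin mark was measured at these stretches in the data analysed here.

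Allelic reads summed to between 3327373 and 5109159 in a morula library and between 4696355 and 9828943 in an ExE library. Total levels are given as RPKM, that is reads scaled to the length of the gene and to the size of the library, with no read depth. Of the maternal Eed allele, matKO ExE libraries had 6.28 to 19.3 allelic RPKM and CTR libraries 61.6 to 76.4, so that every ExE library had the Eed level of its genotype label. In morulae the maternal share of Eed reads was 16.02% and 20.9% in matKO and 37.7% and 46.0% in CTR libraries. Of 12 ExE markers, 9 to 12 reached 1 RPKM in matKO ExE libraries and all 12 in CTR libraries. Markers of ectoplacental cone and giant cells that differ from ExE (Tpbpa, Prl3d1, Prl2c2, Ctsq) stood between 0 and 0.0503 RPKM in all 13 libraries. The 7 morula and blastocyst markers summed to 195 to 197 RPKM in matKO and 143 to 342 RPKM in CTR morulae. They included Pou5f1, at 94.5 and 67.5 RPKM in matKO and 62.7 and 69.4 RPKM in CTR morulae. Sox2 was lowest of them, at 0.0368 and 1.001 RPKM in matKO and 0.0673 and 1.82 RPKM in CTR morulae. Krt8 differed within CTR, at 6.44 and 56.1 RPKM, against 9.46 and 11.2 RPKM in matKO morulae. So did Krt18, at 20.2 and 144 RPKM in CTR, against 33.5 and 44.7 RPKM in matKO morulae. The 12 ExE markers did not move together in matKO males 4 and 5. In matKO male 4, 8 of them lay below and 3 above every CTR library, and in matKO male 5, 6 lay below and 3 above. In matKO male 4, Sox2 stood at 0.0717 RPKM, Esrrb at 0.310 RPKM and Bmp4 at 2.95 RPKM. These genes maintain ExE stem cells or signal from them. In matKO male 5, Sox2 stood at 1.501 RPKM, Esrrb at 3.77 RPKM and Bmp4 at 14.8 RPKM, against 10.7 to 13.9 RPKM of Sox2, 35.5 to 40.9 RPKM of Esrrb and 85.5 to 105.8 RPKM of Bmp4 in CTR libraries. Above the CTR range in matKO males 4 and 5 were Tfap2c, at 198 and 129 RPKM against 71.7 to 85.9 RPKM in CTR libraries, Ets2, at 50.7 and 35.2 RPKM against 20.7 to 29.1 RPKM, and Wnt7b, at 46.1 and 37.3 RPKM against 19.6 to 32.8 RPKM. Summed visceral endoderm markers in matKO male 5 stood at 43.7 RPKM, against 3.65 to 4.67 RPKM in CTR libraries. In matKO female 1, the ectoplacental gene Plac1 stood at 0.897 RPKM, against 291 to 487 RPKM in CTR libraries. Plac1 lay below every CTR library in 6 of 9 matKO libraries, with 5.31 RPKM in matKO male 3, 63.6 RPKM in matKO female 4 and 136 to 198 RPKM in matKO male 2, male 5 and female 3, so that low Plac1 was not particular to matKO female 1. Results in ExE are given with and without matKO male 4, matKO male 5 and matKO female 1, a set taken from earlier results of these data and called here the 3 libraries that stand apart. Other sets are given where they bear on a direction.

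In matKO and CTR libraries alike, the level per length of these genes covered a wide range. In ExE, Gnas averaged 154 ± 27.5 RPKM in matKO (SD, n = 9) and 99.8 ± 13.8 RPKM in CTR (n = 4). Mest followed with 68.9 ± 28.6 RPKM in matKO and 77.2 ± 8.68 RPKM in CTR, then Impact with 21.4 ± 7.52 and 22.3 ± 3.86 RPKM in matKO and CTR, and Grb10 with 15.9 ± 4.69 and 18.98 ± 3.27 RPKM. Plagl1 was lowest, with 0.146 ± 0.198 RPKM in matKO and 0.344 ± 0.196 RPKM in CTR. Neighbours in this order overlapped in part: Impact and Grb10 in both groups, Mest and Impact in matKO, and Gnas and Mest in CTR.

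In morulae, Gnas was again highest, with 80.7 ± 18.2 RPKM in matKO (SD, n = 2) and 110.2 ± 17.3 RPKM in CTR (n = 2). Impact came next with 32.6 ± 7.25 RPKM in matKO and 28.0 ± 9.10 RPKM in CTR. Grb10 averaged 2.94 ± 0.486 RPKM in matKO and 2.82 ± 0.482 RPKM in CTR, and Mest 1.68 ± 0.769 RPKM in matKO and 3.19 ± 3.87 RPKM in CTR. Plagl1 stood at 0.551 ± 0.131 RPKM in matKO and 0.794 ± 0.298 RPKM in CTR. In CTR morulae the values of Mest overlapped those of both Grb10 and Plagl1. The tables of both stages were normalized separately, so that levels of the stages are set side by side here without a test.

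**Figure D1:**
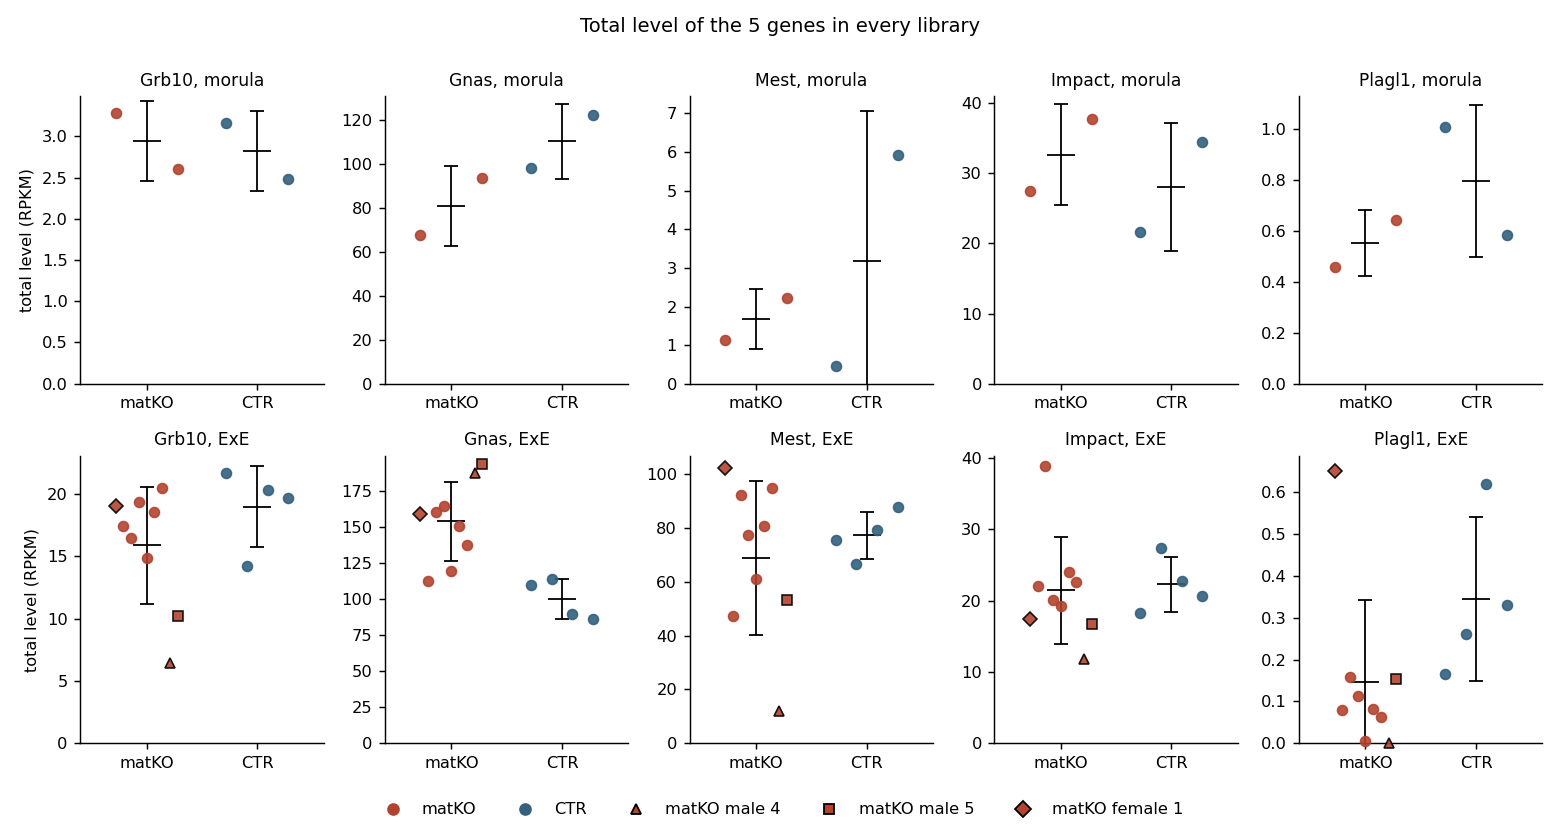
Total level (RPKM, linear axis from 0) of the 5 genes in every morula (top) and ExE (bottom) library, matKO left of CTR, with black bars for the mean and SD. Gnas in ExE lies at 113 to 194 RPKM in matKO and 86.3 to 114 RPKM in CTR, and triangle, square and diamond mark the 3 libraries that stand apart.

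Gnas was higher in most matKO than CTR ExE libraries, with the smallest p of the 4 genes tested in total expression, but did not pass the threshold. The 9 matKO libraries had 113 RPKM at the lowest, 159 RPKM at the median and 194 RPKM at the highest, and the 4 CTR libraries had 109.7, 114, 89.7 and 86.3 RPKM, given throughout in the order female 1, female 2, male 1 and male 2. In 8 of 9 matKO libraries Gnas lay above every CTR library, and the exception, matKO female 2, lay just under the highest CTR library, so that the groups overlapped, as they did for all but 2.93% of the genes tested (1.55% all higher and 1.38% all lower in matKO). The share of all genes with 8 of 9 matKO libraries above every CTR library was not determined. The means differed by a factor of 1.54, and the change on the log2(RPKM + 1) scale, averaged over the sexes, was 0.60 ± 0.13 (SE). It did not pass across all 9915 genes tested (limma adjusted p = 0.104), although only 0.645% of genes had a p as small. In this tissue comparison 0.0504% of genes were called at an adjusted p under 0.05, 4 of them higher (0.0403%) and 1 lower (0.0101%), where median scaling gave 8 higher and 7 lower and quantile normalization 8 higher and 5 lower. Of the 4 imprinted genes tested, limma called 0 and 1 had an unadjusted p under 0.05, as had 16.1% of all genes. Over 23 alternative settings, not counting each sex alone, the change of Gnas ranged between 0.43 and 0.67, with an adjusted p of 0.0515 to 0.461. Without the 3 libraries that stand apart, the matKO range was 113 to 164 RPKM and the change 0.49 ± 0.11 (limma adjusted p = 0.0941). In bulk tissue, more cells of a type and more RNA per cell cannot be told apart.

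In morulae the order of the groups was the other way round. Gnas had 67.8 and 93.6 RPKM in matKO and 98.0 and 122 RPKM in CTR morulae. Both matKO libraries lay below both CTR libraries, which 8.81% of the 10329 genes tested did and a further 10.3% in the opposite direction. The log2 change of -0.45 ± 0.34 did not pass (limma adjusted p = 1.0), and 0.0% of genes did at this stage, with 0.891% at an unadjusted p under 0.05.

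The allele of origin of Gnas could not be read. Its allelic RPKM were listed at 0 for both alleles in 8 of 9 matKO and 3 of 4 CTR ExE libraries, beside total levels of 86.3 RPKM or more, and the highest value of a single allele was 0.304 RPKM. The listed interval of Gnas is 1.82 kb from that of Nespas, an antisense transcript of the same domain that is read from the paternal allele. Without knowledge of strand in the counting, reads of overlapping sense and antisense transcripts cannot be told apart. Nespas had 4.64 ± 0.990 RPKM in matKO (n = 9) and 4.38 ± 0.593 RPKM in CTR ExE (n = 4), with a log2 change of 0.06 ± 0.14 (limma adjusted p = 0.879). Its maternal allele was above 0 in 1 of 9 matKO libraries, matKO male 4, and in 1 of 4 CTR libraries, so that this neighbour of Gnas was read from the paternal allele in both groups.

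Grb10 was read mainly from the maternal allele in ExE of both groups. The maternal share of its allelic RPKM was 82.7% at the lowest, 94.7% at the median and 99.0% at the highest over the 9 matKO libraries, and 93.7%, 96.0%, 97.8% and 97.0% in the 4 CTR libraries. The matKO libraries spread on both sides of the CTR range, and matKO female 4, the lowest, had 5.77 RPKM on its paternal allele beside 27.6 RPKM on its maternal allele. The log2 ratio of maternal to paternal level changed by -0.72 ± 0.37, which did not pass (limma adjusted p = 0.592), and by -0.42 ± 0.28 without the 3 libraries that stand apart (limma adjusted p = 0.718). In this comparison 0.341% of 9666 genes passed (0.0931% higher and 0.248% lower) and 9.34% had an unadjusted p under 0.05. Allelic read counts over 13 variants gave maternal shares of 83.7 to 99.3% in matKO columns (125 to 679 reads each) and 94.0 to 98.3% in CTR columns (298 to 629 reads). The names of the ExE count columns matched the total table in only 3 of 13 cases but in genotype in 13 of 13, so that these counts are used by genotype alone. Allelic and total RPKM of a gene are on different scales, since the allelic values exceed the total for Grb10, and are not compared with each other.

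The total level of Grb10 in ExE was 6.43 RPKM at the lowest, 17.4 RPKM at the median and 20.5 RPKM at the highest in matKO, and 21.7, 14.2, 20.3 and 19.7 RPKM in CTR libraries. The groups overlapped, and the lowest values, 6.43 and 10.2 RPKM, were those of matKO males 4 and 5, the libraries low in Sox2 and Esrrb. Its change was -0.27 ± 0.24 (limma adjusted p = 0.605), and -0.07 ± 0.12 without the 3 libraries that stand apart. The maternal allele averaged 22.9 ± 7.85 RPKM in matKO and 28.4 ± 6.29 RPKM in CTR, and the paternal allele 1.92 ± 1.65 RPKM in matKO and 1.13 ± 0.594 RPKM in CTR. Neither allele passed alone (log2 change -0.34 ± 0.29 for the maternal and 0.37 ± 0.30 for the paternal allele; limma adjusted p = 0.674 and 0.653). Of all genes, 0.196% passed on the maternal allele (0.161% higher and 0.0346% lower) and 1.12% on the paternal allele (1.01% higher and 0.106% lower), and 11.2% and 13.2% had an unadjusted p under 0.05.

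In morulae Grb10 was read from both alleles, with more maternal than paternal reads in 4 of 4 libraries. Maternal reads were 62 of 81 (76.5%, 95% Wilson interval 66.2 to 84.4) and 92 of 121 (76.0%, 67.7 to 82.8) in matKO morulae, and 57 of 86 (66.3%, 55.8 to 75.4) and 55 of 102 (53.9%, 44.3 to 63.3) in CTR morulae, over 10 variants. Both matKO shares lay above both CTR shares, as for 15.3% of the 7872 genes tested (31.4% in either direction), with intervals that overlapped that of the first CTR library. These intervals cover counting error only. In allelic RPKM, Grb10 had 5.67 maternal and 1.62 paternal in matKO morula 1, and 4.30 and 1.93 in matKO morula 2. It had 4.44 maternal and 2.13 paternal in CTR morula 1, and 3.24 and 2.54 in CTR morula 2. On that measure, matKO morula 2 and CTR morula 1 lay closer together than in the read counts. The ratio of maternal to paternal reads changed by 1.09 ± 0.49 on the log2 scale, in the direction opposite to ExE, and did not pass (edgeR adjusted p = 1.0), where 0.0254% of 7872 genes did and 3.99% had an unadjusted p under 0.05. The difference between the stages was not tested. Total Grb10 was 3.29 and 2.60 RPKM in matKO and 3.16 and 2.48 RPKM in CTR morulae (log2 change 0.05 ± 0.31, limma adjusted p = 1.0).

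**Figure D2:**
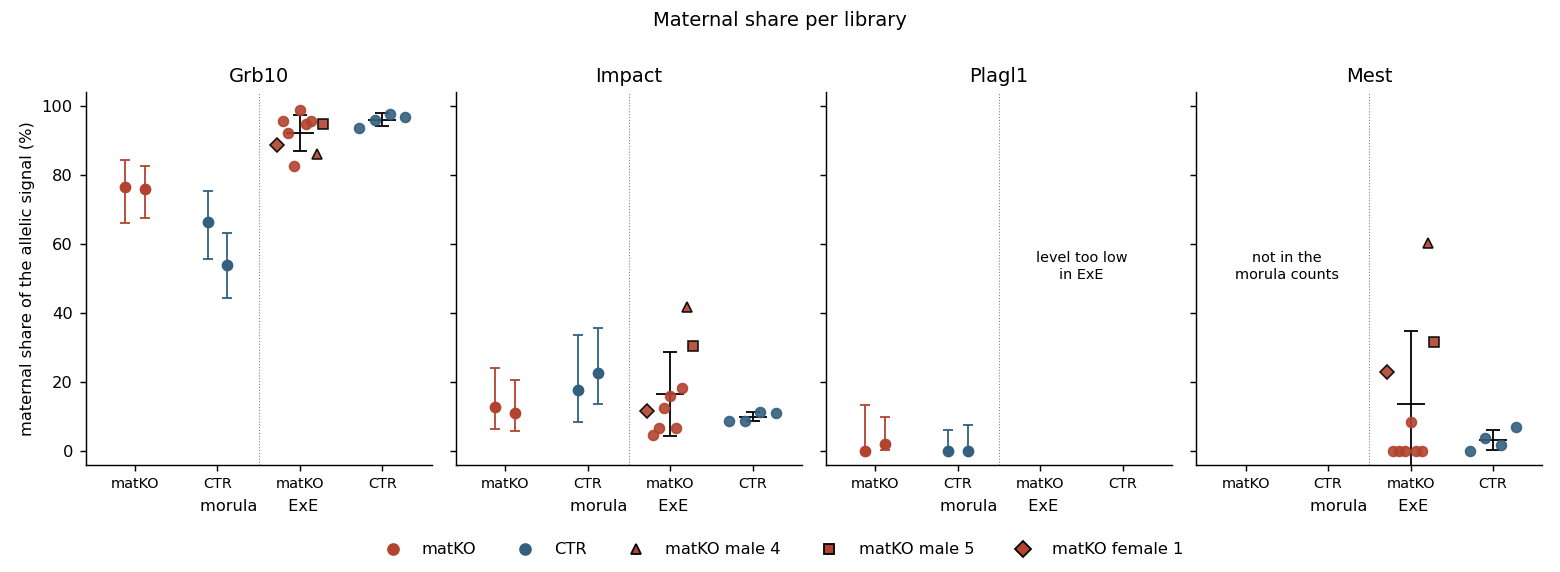
Maternal share of the allelic signal (%) per library, from read counts with 95% Wilson intervals in morulae and from allelic RPKM with mean and SD in ExE, matKO left of CTR at each stage. Grb10 lies at 53.9 to 76.5% in morulae and 82.7 to 99.0% in ExE, while Impact and Mest lie low except in matKO males 4 and 5 and, for Mest, matKO female 1.

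Mest was read from the paternal allele in most ExE libraries. Its maternal share was 0% in 5 of 9 matKO libraries and in 1 of 4 CTR libraries, and 3.69%, 1.67% and 6.83% in the remaining CTR libraries. The 3 matKO libraries that stand apart had the highest maternal shares, 60.4% in matKO male 4, 31.5% in matKO male 5 and 23.0% in matKO female 1, and matKO male 1 had 8.49%. In matKO male 4 the paternal allele of Mest stood at 1.91 RPKM, against 19.4 to 28.5 RPKM in CTR libraries, and the maternal allele at 2.91 RPKM, against 0 to 2.09 RPKM. In matKO male 5 the paternal allele stood at 11.1 RPKM and the maternal at 5.09 RPKM, and in matKO female 1 the paternal allele stood at 23.5 RPKM and the maternal at 7.04 RPKM. The high share thus came with a low paternal allele in matKO male 4 and with a paternal allele within the CTR range in matKO female 1. The 3 matKO count columns with the highest shares held 12 maternal reads of 20 (60.0%, 95% Wilson interval 38.7 to 78.1), 27 of 83 (32.5%, 23.4 to 43.2) and 64 of 272 (23.5%, 18.9 to 28.9), over 2 variants only.

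Over all ExE libraries, the allelic ratio of Mest changed by 0.63 ± 0.99 on the log2 scale (limma adjusted p = 0.936), and by -0.57 ± 0.47 without the 3 libraries that stand apart (limma adjusted p = 0.777). It was -0.18 ± 0.69 without matKO males 4 and 5 alone (limma adjusted p = 0.978) and -0.36 ± 0.46 without matKO male 3 as well as the 3 libraries (limma adjusted p = 0.894), and these sets were chosen after the data were seen. The direction thus turned with each of the 3 sets left out. Maternal Mest averaged 1.91 ± 2.64 RPKM in matKO (n = 9), or 0.359 ± 0.880 RPKM in the 6 matKO libraries other than these, and 0.816 ± 0.902 RPKM in CTR (n = 4). Taken alone, its maternal allele changed by 0.26 ± 0.64 (limma adjusted p = 0.895) and its paternal allele by -0.37 ± 0.51 (limma adjusted p = 0.823). The share of maternal signal over all autosomal genes was 47.2%, 47.7% and 47.5% in matKO male 4, male 5 and female 1, against 47.7 to 48.1% in the other matKO libraries and 47.3 to 47.8% in CTR libraries. Summed decidua markers, from the maternal tissue around the embryo, stood at 2.84 to 6.53 RPKM in matKO and 5.96 to 7.09 RPKM in CTR. Of the 12 markers, 3 averaged at least 1 RPKM over the ExE libraries. Cryab averaged 2.21 ± 0.762 RPKM in matKO and 2.05 ± 0.171 RPKM in CTR. Prlr averaged 1.24 ± 0.875 and 0.771 ± 0.339 RPKM, and Igfbp4 1.48 ± 0.958 and 3.81 ± 0.862 RPKM, in the same order. Prl8a2, Dcn and Hoxa11 lay between 0 and 0.0640 RPKM in all 13 libraries. The part of the cell makeup of these libraries in the allelic values was not tested.

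**Figure D3:**
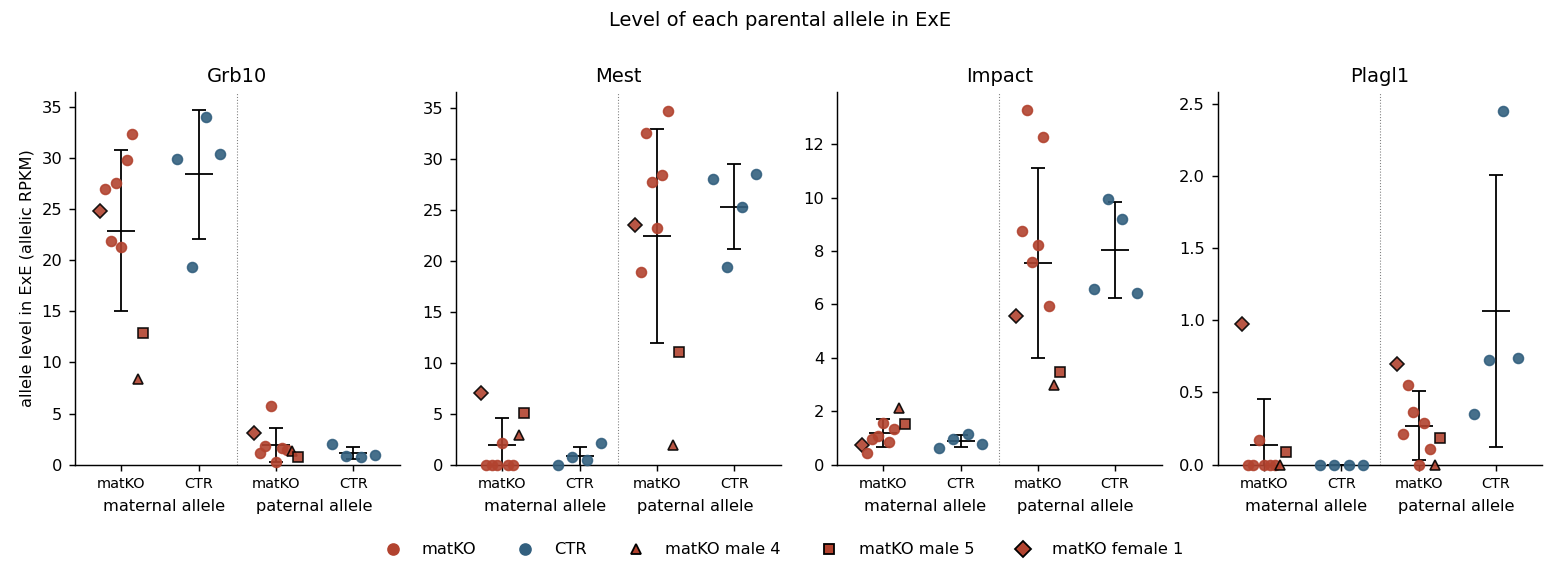
Allelic RPKM (linear axis from 0) of the maternal and the paternal allele of Grb10, Mest, Impact and Plagl1 in each ExE library, matKO left of CTR within each allele, with black bars for mean and SD. Paternal Mest stands at 1.91 RPKM in matKO male 4 while maternal Mest reaches 7.04 RPKM in matKO female 1.

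Total Mest in ExE was 11.9 RPKM at the lowest, 77.3 RPKM at the median and 102 RPKM at the highest in matKO, and 75.4, 66.7, 79.1 and 87.6 RPKM in CTR libraries. The matKO libraries lay on both sides of the CTR range, 4 below and 3 above it, with the lowest again matKO male 4. The change was -0.31 ± 0.42 (limma adjusted p = 0.763), and -0.06 ± 0.18 without the 3 libraries that stand apart. In morulae, Mest had 1.14 and 2.22 RPKM in matKO and 0.451 and 5.92 RPKM in CTR libraries, a spread within CTR that was wider than the difference between groups (log2 change -0.27 ± 0.76, limma adjusted p = 1.0). The CTR morula library with 5.92 RPKM also had 144 RPKM of the trophectoderm keratin Krt18, against 20.2 RPKM in the other CTR library and 33.5 and 44.7 RPKM in matKO libraries. The part of this difference between CTR libraries in the Mest level was not tested. The allelic RPKM of Mest in morulae were 0 for both alleles in 1 library of each group, 0 maternal and 1.26 paternal in matKO morula 2, and 0.242 maternal and 2.12 paternal in CTR morula 2.

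Impact was also read mainly from the paternal allele, in both stages. Its listed interval was chr18:13130761-13130881. In ExE its maternal share was 4.65% at the lowest, 12.6% at the median and 41.8% at the highest in matKO, and 8.73%, 8.75%, 11.2% and 10.9% in CTR libraries. The highest shares, 41.8% and 30.4%, were those of matKO males 4 and 5, where the paternal allele stood at 2.97 and 3.47 RPKM, against 6.43 to 9.94 RPKM in CTR libraries. Maternal Impact in these libraries was 2.13 and 1.52 RPKM, against 0.628 to 1.16 RPKM in CTR. The allelic ratio changed by 0.31 ± 0.38 (limma adjusted p = 0.909), and by -0.07 ± 0.28 without the 3 libraries that stand apart (limma adjusted p = 0.977). Taken alone, the maternal allele changed by 0.16 ± 0.18 (limma adjusted p = 0.768) and the paternal allele by -0.15 ± 0.31 (limma adjusted p = 0.890). Count columns, with 3 variants, had 17.2% ± 11.6 maternal reads in matKO (n = 9, 32 to 118 reads each) and 10.7% ± 2.17 in CTR (n = 4, 45 to 80 reads).

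Morula counts of Impact were 7 maternal of 55 reads (12.7%, 95% Wilson interval 6.30 to 24.0) and 8 of 72 (11.1%, 5.74 to 20.4) in matKO, and 6 of 34 (17.6%, 8.35 to 33.5) and 12 of 53 (22.6%, 13.5 to 35.5) in CTR libraries. Both matKO shares were below both CTR shares, as for 16% of the genes tested, with overlapping intervals, and the change of -0.92 ± 0.66 did not pass (edgeR adjusted p = 1.0). Total Impact in morulae was 27.5 and 37.7 RPKM in matKO and 21.6 and 34.5 RPKM in CTR libraries (log2 change 0.23 ± 0.38, limma adjusted p = 1.0). In ExE it was 11.8 RPKM at the lowest, 20.1 RPKM at the median and 38.9 RPKM at the highest in matKO, and 18.3, 27.4, 22.8 and 20.7 RPKM in CTR libraries. Both extremes were matKO libraries, male 4 at the low end and female 3 at the high end, and the change was -0.08 ± 0.22 (limma adjusted p = 0.885), or 0.11 ± 0.18 without the 3 libraries that stand apart.

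Plagl1 reads in morulae were nearly all paternal. It had 0 maternal reads of 25 and 1 of 53 in matKO, and 0 of 60 and 0 of 47 in CTR libraries, over 12 variants. A count of 0 allows a maternal share of up to 12% in the first matKO library, and up to 5.0% and 6.38% in the CTR libraries, and the single maternal read gave 1.89% (95% Wilson interval 0.334 to 9.94). The fitted change of 2.78 ± 2.00 rests on that read and is no bound (edgeR adjusted p = 1.0). Total Plagl1 in morulae was 0.459 and 0.643 RPKM in matKO and 1.01 and 0.583 RPKM in CTR libraries. Its mean was under the 1 RPKM needed for the test at both stages.

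In ExE, total Plagl1 was listed at 0 at the lowest, 0.0831 RPKM at the median and 0.652 RPKM at the highest in matKO, and at 0.165, 0.261, 0.620 and 0.332 RPKM in CTR libraries. In 8 of 9 matKO libraries it lay below every CTR library, and the exception, matKO female 1, was the highest of all 13. The groups thus overlapped, and the share of all genes with such a count was not determined. With no filter on low values the change was -0.22 ± 0.10 (limma adjusted p = 0.387). The paternal allele had 0 to 0.7001 RPKM in matKO and 0.349 to 2.45 RPKM in CTR libraries (log2 change with no filter -0.61 ± 0.17, limma adjusted p = 0.149). The maternal allele was at 0 in all 4 CTR libraries and in 6 of 9 matKO libraries, with 0.976, 0.174 and 0.0881 RPKM in matKO female 1, female 4 and male 5. At these levels a few reads can set a value, and the number of reads is not given for Plagl1 in ExE.

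**Figure D4:**
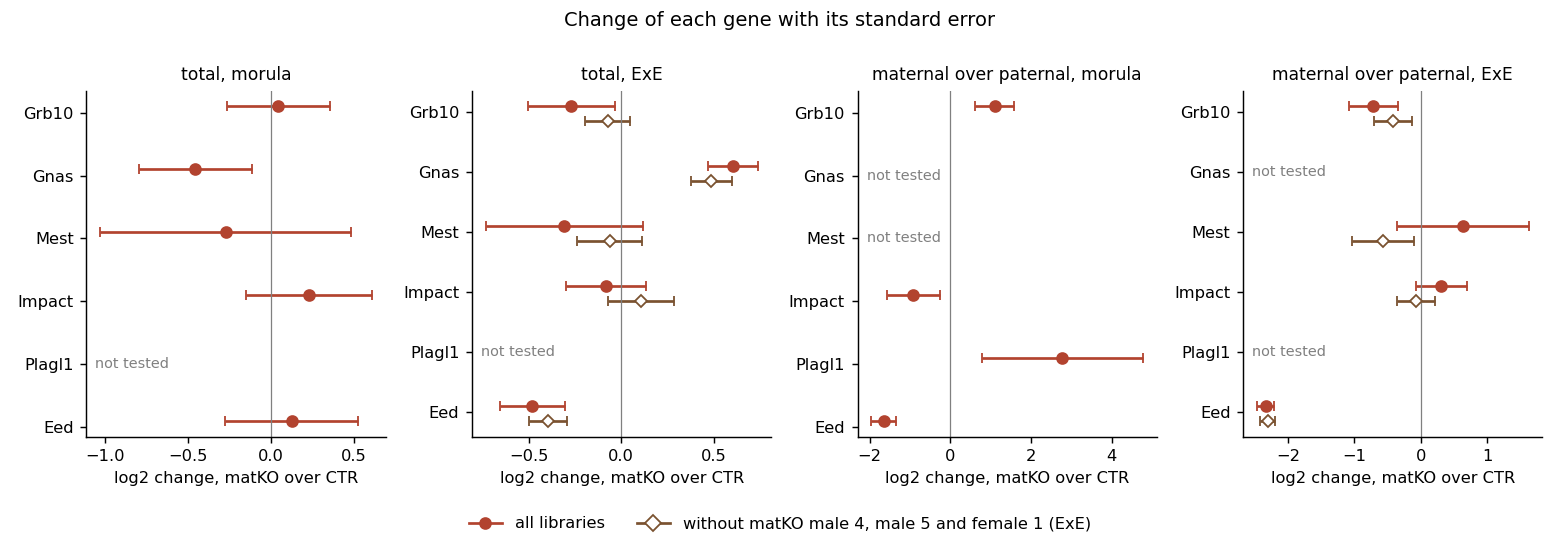
Log2 change of matKO over CTR with its standard error, for total level (2 left panels) and for the ratio of maternal to paternal signal (2 right panels), with Eed below as the check of the genotype. Filled circles use all libraries and open diamonds leave out the 3 ExE libraries that stand apart, and for Mest the allelic change is 0.63 with and -0.57 without them.

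**Figure D5:**
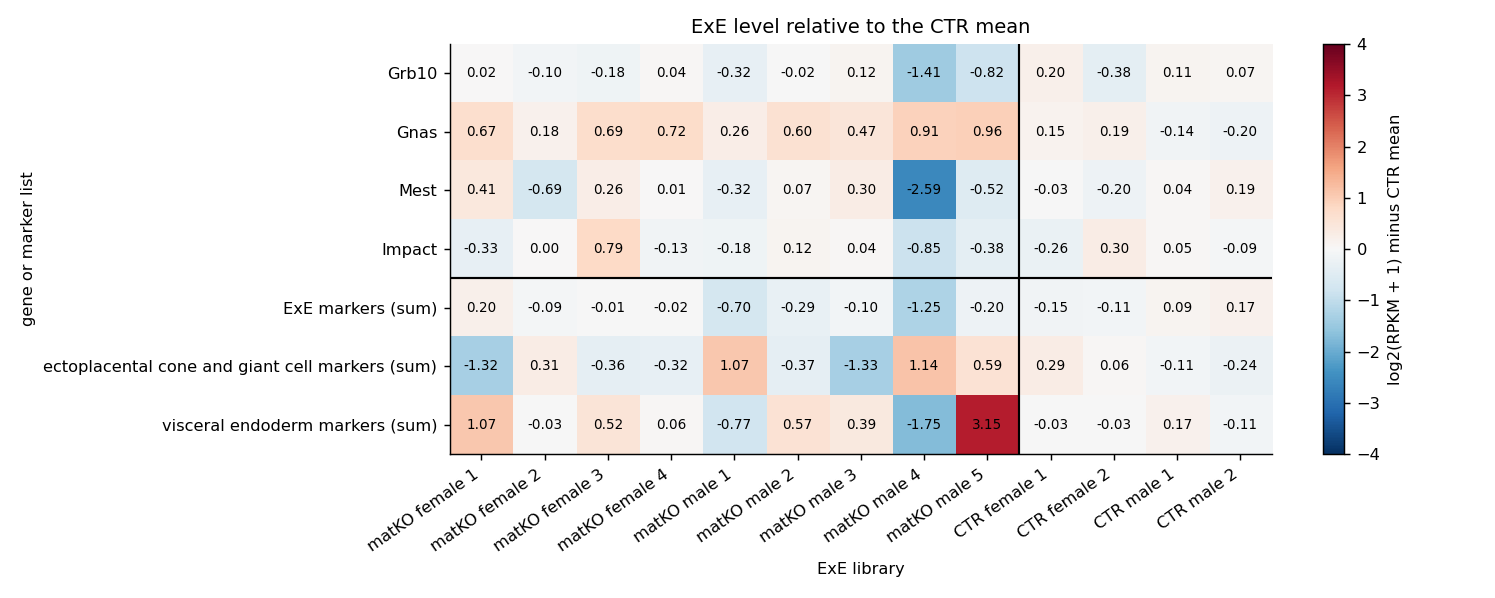
Difference of log2(RPKM + 1) from the mean of the CTR libraries, for 4 genes and 3 summed marker lists (rows) in each ExE library (columns), matKO left of the black line and CTR right of it. Gnas is positive in all 9 matKO libraries (0.18 to 0.96) and reaches 0.195 in CTR female 2. The low values of Grb10 (-1.41) and Mest (-2.59) are those of matKO male 4. There the ExE marker sum, most of which is Id2 in CTR, is also lowest (-1.25).

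Relative to the CTR mean, Gnas was higher in all 9 matKO libraries, by 0.18 to 0.96 on the log2(RPKM + 1) scale. CTR female 2 lay above that mean by 0.195 and matKO female 2 by 0.184, so that the groups overlapped. The share of all genes with every matKO library on the same side of the CTR mean was not counted. In matKO males 4 and 5, where Gnas was highest, Grb10 differed by -1.41 and -0.82, Mest by -2.59 and -0.52 and Impact by -0.85 and -0.38. The summed ExE markers differed in these libraries by -1.25 and -0.20 and the summed ectoplacental markers by 1.14 and 0.59. Id2 alone made up 47.7% of the ExE sum in matKO male 4 and 67.9 to 79.1% in CTR libraries, and without Id2 the sum differed by -0.16 and -0.23 in matKO males 4 and 5. Plac1 made up 38.0 to 48.7% of the ectoplacental sum in CTR libraries and 22.3% and 12.3% in matKO males 4 and 5. Without Plac1 the ectoplacental sum differed by 1.63 and 1.26 in matKO males 4 and 5. The part of these markers in the levels of the 5 genes was not tested.

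Females and males were compared within the same fit. Gnas changed by 0.40 ± 0.19 in females (limma adjusted p = 0.997) and by 0.81 ± 0.19 in males (limma adjusted p = 0.211), with a difference of -0.41 ± 0.27 (limma adjusted p = 0.990). Grb10 changed by 0.04 ± 0.34 in females and -0.58 ± 0.33 in males, Mest by 0.11 ± 0.61 in females and -0.73 ± 0.59 in males, and Impact by 0.07 ± 0.31 in females and -0.23 ± 0.30 in males. The males include matKO males 4 and 5. For none of the 4 genes tested did the difference between the sexes in total level pass (limma adjusted p = 0.990 each), where 0.0% of all genes did and 1.71% had an unadjusted p under 0.05. In the allelic ratio the differences of Grb10 (0.29 ± 0.74), Mest (-0.78 ± 1.99) and Impact (-0.71 ± 0.77) did not pass either (limma adjusted p = 0.989, 0.989 and 0.977), where 0.155% of genes did and 6.39% had an unadjusted p under 0.05.

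The pathways in which these genes act were followed through lists of other members, and limma and edgeR called 0 genes of these lists in either stage, in total level or allelic ratio. For insulin and IGF signalling, where Grb10 acts, 29 of 40 genes were tested in total level in ExE, of which 2 were higher and 4 lower at an unadjusted p under 0.05, as were 16.1% of all genes in either direction, with a median log2 change of -0.02 beside 0.01 over all genes. Igfbp4, which binds IGFs and was also listed as a decidua marker, averaged 1.48 ± 0.958 RPKM in matKO and 3.81 ± 0.862 RPKM in CTR (log2 change -1.03 ± 0.32, limma adjusted p = 0.158), and Akt1, a kinase downstream of the receptors, 64.7 ± 12.9 RPKM in matKO and 46.7 ± 5.84 RPKM in CTR (0.43 ± 0.13, limma adjusted p = 0.158). For Gs and cyclic AMP signalling, where Gnas acts, 17 of 36 genes were tested, with 3 higher and 4 lower at an unadjusted p under 0.05 and a median of -0.12, beside the same 16.1% of all genes. Gnai1, an inhibitory G protein alpha subunit, averaged 2.04 ± 0.709 RPKM in matKO and 3.34 ± 0.162 RPKM in CTR (-0.53 ± 0.17, limma adjusted p = 0.162).

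For GCN2 and the integrated stress response, which Impact inhibits, 33 of 34 genes were tested in ExE, with 5 higher and 0 lower at an unadjusted p under 0.05, beside 16.1% of all genes in either direction, and a median of 0.07. Sesn2, a stress-induced inhibitor of mTORC1, averaged 4.55 ± 1.13 RPKM in matKO and 2.76 ± 0.543 RPKM in CTR (0.53 ± 0.13, limma adjusted p = 0.123), and Asns, which makes asparagine, 305 ± 47.2 RPKM in matKO and 253 ± 19.96 RPKM in CTR (0.27 ± 0.10, limma adjusted p = 0.241). Of the PLAG family and cell cycle arrest genes, 10 of 19 were tested, with 2 higher and 1 lower. Cdkn1a, a cell cycle inhibitor, averaged 5.61 ± 1.91 RPKM in matKO and 2.60 ± 1.22 RPKM in CTR (0.88 ± 0.25, limma adjusted p = 0.147). Of hydrolase genes related to Mest, 14 of 16 were tested, with 2 higher and 1 lower. Abhd4 averaged 25.8 ± 7.28 RPKM in matKO and 16.2 ± 2.46 RPKM in CTR (0.60 ± 0.18, limma adjusted p = 0.158). Of 42 other imprinted growth genes, 27 were tested, with 1 higher and 3 lower. Peg3, a paternally expressed zinc finger gene, averaged 14.8 ± 2.59 RPKM in matKO and 25.7 ± 3.35 RPKM in CTR (-0.75 ± 0.13, limma adjusted p = 0.0540). In total level in morulae, Igfbp2, which binds IGFs, was the single gene of the 6 lists with an unadjusted p under 0.05 (log2 change -1.02 ± 0.31, limma adjusted p = 1.0). In the allelic ratio in ExE, an unadjusted p under 0.05 was reached by 3 genes higher and 1 lower of 27 insulin and IGF genes, 2 higher and 3 lower of 19 Gs and cyclic AMP genes, 1 higher of 29 GCN2 genes, 1 lower of 7 PLAG genes, 0 of 10 hydrolase genes and 1 higher of 25 other imprinted genes, beside 9.34% of all genes. In the morula allelic ratio, 3.99% of all genes reached it. There it was reached by 2 higher and 1 lower of 23 GCN2 genes and 1 higher of 8 hydrolase genes. Of 14 other imprinted genes, 3 reached it, all higher: Sgce (log2 change 1.61 ± 0.50), Ppp1r9a (2.49 ± 0.82) and Zdbf2 (4.61 ± 1.73). It was reached by 0 of 19 insulin and IGF, 0 of 15 Gs and cyclic AMP and 0 of 6 PLAG genes.

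Of the genes whose listed interval lies within 250 kb of these 5, the tables held 31. Of these, 16 were tested in total level in ExE and 17 in allelic ratio, and 0 passed in either, with 2 in total level and 3 in allelic ratio at an unadjusted p under 0.05, beside 16.1% and 9.34% of all genes. Ctsz, a lysosomal protease 143 kb from Gnas, was higher in every matKO library, at 209 to 322 RPKM, than in every CTR library, at 156 to 201 RPKM, as were 1.55% of genes tested (log2 change 0.47 ± 0.11, limma adjusted p = 0.111). Both its alleles contributed, with a maternal share of 49.5% ± 1.51 in matKO and 47.1% ± 1.55 in CTR. The 3 neighbours under this p in allelic ratio were Ctsz, Fignl1 near Grb10 and B230208H11Rik near Plagl1. The maternal share of Fignl1 was 66.4% ± 4.35 in matKO and 72.2% ± 1.43 in CTR (-0.39 ± 0.14, limma adjusted p = 0.381). B230208H11Rik averaged 0.324 RPKM in matKO and 0.465 RPKM in CTR in total level, and its ratio changed by -1.20 ± 0.37 (limma adjusted p = 0.239). Ddc, the aromatic amino acid decarboxylase gene next to Grb10 and imprinted with it in the developing heart, averaged 2.96 ± 0.809 RPKM in matKO and 4.16 ± 0.395 RPKM in CTR (-0.39 ± 0.15, limma adjusted p = 0.239), with a maternal share of 76.9% ± 8.65 in matKO and 63.6% ± 16.9 in CTR. Copg2, which lies tail to tail with Mest, was biallelic, with a maternal share of 49.8% ± 9.56 in matKO and 46.2% ± 9.33 in CTR. Where Copg2 and Mest overlap, reads could not be told apart without strand. In morulae 16 of these genes were tested in total level and 10 in allelic ratio, and 0 passed. In total level 0 of them had an unadjusted p under 0.05, beside 0.891% of all genes. In allelic ratio only Npepl1, 174 kb from Gnas, had such a p (log2 change 1.98 ± 0.65), beside 3.99% of all genes.

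Plagl1 was under the filter and was not ranked. The genes most alike to each of the other 4 over the 13 ExE libraries were ranked by Pearson correlation of log2(RPKM + 1) among 9914 genes, as a description, since the libraries share 2 genotypes and the 3 that stand apart. For Gnas these were Aldoa (r = 0.941), 2410012M07Rik (0.928) and Bzw2 (0.927). For Grb10 they were Pth1r (0.972), Stat3 (0.955) and Wnt6 (0.954), and for Mest they were Paip1 (0.958), Crot (0.958) and Ccdc3 (0.955). Impact was closest to Mier3 (0.903), Ly6k (0.877) and Arid4b (0.877). Among themselves Grb10 and Mest were most alike (0.876) and Grb10 and Gnas least (-0.564). The authors' deposited tables of changed genes, with 178 higher and 270 lower genes in morulae, 154 in ExE females and 400 in ExE males, list 0 of the 5 genes and 0 of the neighbours within 250 kb.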

How the data were processed

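RNA was amplified with SMARTer Ultra Low Input and made into libraries with Nextera XT, per the labels' protocols, and the submitters' processing notes list HISAT2 2.1.0, Cufflinks 2.2.1 and mm9 without their roles. The authors deposited RPKM per gene (total and per allele) and allelic read counts per gene summed over variants. The authors' deposited log2 fold changes were not tested here; their tables were used for which genes they list. Strand of counting is not given in the sources used here. Names of ExE count columns were used for genotype only, and 21 other columns of per-sample values were not used.

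Totals and single alleles were tested with limma 3.58.1 (trend) on log2(RPKM + 1), after leaving out genes that averaged under 1 RPKM. The ExE allelic ratio was tested with limma on log2((maternal + 1)/(paternal + 1)), and morula allelic counts (mean of at least 20 reads) with edgeR 4.0.16, quasi-likelihood, with the library as a block. ExE changes were averaged over the sexes. P-values were Benjamini-Hochberg adjusted over all genes tested, with a threshold of 0.05. Scripts were tested on simulated data. Alternatives were other pseudocounts, filters, scalings, tools, sexes, each library left out, and the replicate number as a block.

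The genes and lists were chosen with earlier results of these data known. List genes named are among the 4 with the smallest p of their list, neighbours are those within 250 kb, and the genes most alike are the 3 with the highest r. CUT&RUN samples were not analysed here.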

Additional observations from a re-analysis of the deposited data

Results flagged for a closer look

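A sample far from the others of its group was found in 3 of 36 groups of 4 to 10 libraries (8.33%), where chance gives about 1 in 20. Total Plagl1 in matKO ExE was highest in matKO female 1, at 0.652 RPKM. Total Impact in matKO ExE was highest in matKO female 3, at 38.9 RPKM. Paternal Grb10 in CTR ExE was highest in CTR female 1, at 2.01 RPKM. Total Gnas lay on opposite sides of the CTR mean at the stages. Every matKO library lay above that mean in ExE (log2 change 0.60), although the groups overlapped, and below it in morulae (-0.45). The difference between the stages was not tested.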

How the results depend on the processing

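Of 521 alternatives for results on the 5 genes, 483 kept direction and side of the threshold, 38 reversed, and none passed; the lowest adjusted p was 0.0515 (Gnas total in ExE, limma). The cause of these changes was not tested. Leaving out 1 library each gave log2 changes in morula total level of -0.083 to 0.18 for Grb10, -1.40 to 0.86 for Mest, -0.094 to 0.56 for Impact and -0.33 to 0.58 for Eed, in ExE total level of -0.22 to 0.056 for Impact, in maternal level of -0.11 to 0.54 for Mest, and in the sex difference of the allelic ratio of -0.036 to 0.55 for Grb10, -1.56 to 0.0078 for Mest and -0.19 to 0.017 for Eed. Such fits assume that a lone library varies like the others. In females only, total levels changed by 0.036 for Grb10, 0.11 for Mest and 0.065 for Impact, maternal Grb10 by 0.065, paternal Mest by 0.10, paternal Impact by 0.0497 and the ratio of Impact by -0.049. In males only, paternal Eed changed by -0.073. With a pseudocount of 0.1, maternal Mest changed by -0.20. With DESeq2 on counts, the ratio of Mest changed by -0.61. Without matKO male 4, matKO male 5 and matKO female 1, total Impact changed by 0.11, paternal Mest by 0.11, paternal Impact by 0.17, the ratio of Mest by -0.57 and the ratio of Impact by -0.071. With sets of libraries chosen after seeing the data, without matKO males 4 and 5, total Mest changed by 0.0047, total Impact by 0.038, maternal Mest by -0.084, paternal Mest by 0.091, paternal Impact by 0.086 and the ratio of Mest by -0.18, and without these, matKO male 3 and matKO female 1, total Impact changed by 0.095, paternal Mest by 0.037, paternal Impact by 0.28, the ratio of Mest by -0.36 and the ratio of Impact by -0.20. Without matKO males 4 and 5, 69 genes were called in total level, 31 in maternal and 61 in paternal level, and without the 4 libraries 103 in total level, 38 in paternal level and 10 in the ratio.

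Counts of genes called moved more. In ExE total level (5 genes) they were 2 in females only, 10 with a pseudocount of 0.1, 38 with no filter, 11 with a filter of 5 RPKM, 15 with median scaling, 13 with quantile normalization, 11 without trend, 49 without the 3 libraries that stand apart, and 3 to 17 leaving out 1 library (lowest without CTR male 1, highest without matKO female 2). In morula total level (0 genes) leaving out 1 library gave 1 to 16 (highest without CTR morula 2). The sex difference in total level (0 genes) gave 1 with no filter and 0 to 1 leaving out 1 library. Maternal level (17 genes) gave 3 in females only, 6 in males only and 11 to 23 leaving out 1 library (lowest without CTR male 1). Paternal level (95 genes) gave 162 in females only, 0 in males only, 23 with a pseudocount of 0.1, 55 with a filter of 5 RPKM, 53 without the 3 libraries and 15 to 159 leaving out 1 library (lowest without CTR female 1, highest without matKO female 2). The ExE allelic ratio (33 genes) gave 161 in females only, 7 in males only, 20 with no filter, 17 without trend, 18 without the 3 libraries, 6 from counts with edgeR and 10 to 94 leaving out 1 library (lowest without CTR male 2, highest without matKO female 3). Its sex difference (15 genes) gave 46 with a pseudocount of 0.1, 5 with no filter, 5 without trend and 0 to 71 leaving out 1 library (lowest without CTR male 1, highest without matKO female 2). The morula allelic ratio (2 genes) gave 14 with DESeq2, 4 with no filter, 0 from allelic RPKM with limma and 0 to 123 leaving out 1 library (lowest without matKO morula 1, highest without CTR morula 1).

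With the replicate number as a block (replicate block), 164 genes were called in morula total level, 45 in ExE total level, 7 in paternal level, 15 in the ExE ratio and 43 in the morula ratio. Maternal Impact then changed by -0.014, paternal Impact by 0.081 and the ratio of Impact by -0.10. Same-numbered libraries correlated at -0.038 to 0.058 in ExE. In morulae the correlation was 0.702, a single value, since 2 libraries a group give mirror deviations. The labels do not say that a number marks a shared litter, batch or day, so that the block was kept as an alternative and the morula counts with and without it stand side by side.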
